A study of Homo sapiens with 8 samples.

Results

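The 8 angiogenic and vascular ligand genes examined here were VEGFA, VEGFB, VEGFC, PGF, ADM, ANGPTL4, EFNA1 and EFNA3, taken by symbol from the 23193 genes of the series. Nascent transcription was measured by precision run-on sequencing (PRO-seq), which maps RNA polymerase engaged on the genome, in HCT116 cells, an epithelial line from a human colorectal carcinoma. WT and HIF1A-/- HCT116 cells were each kept in normoxia or exposed to hypoxia (1% O2) for 90 minutes, and all 4 groups carried the vehicle DMSO. Each group had 2 libraries from independent preparations of nuclei, giving 8 libraries in all. The HIF1A-/- line was made by homologous recombination with an adeno-associated virus vector that disrupted part of the HIF1A gene. Each genotype was therefore 1 line, grown as a monoculture without vessels.

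Hypoxia-inducible factors (HIFs) are transcription factors whose alpha subunit, such as HIF1A, is hydroxylated and destroyed when O2 is plentiful. When O2 falls, the alpha subunit accumulates, pairs with ARNT and binds DNA at a short core motif, ACGTG or GCGTG. Tumour cells short of O2 make ligands that can act on nearby endothelium. VEGFA and its relatives act through VEGF receptors, and adrenomedullin (ADM) through CALCRL with a RAMP partner. The ephrin-A ligands are anchored in the membrane and act through Eph receptors.

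The sequence upstream of the assigned transcription start site (TSS) is shown for ADM, ANGPTL4 and EFNA3, whose gene bodies rose in hypoxia, and for EFNA1, which lies beside EFNA3 and did not pass the test. Each is read from the GRCh37 genome on the plus strand, starts 250 bases before the TSS, and was ended early where needed to hold at most 30 exonic bases. The EFNA3 sequence for that reason ends 5 bases before its TSS. The TSS region in which reads were counted starts 50 bases before the TSS, so most of each sequence lies upstream of it. Capitals mark the core motif ACGTG or GCGTG, which reads CACGT or CACGC where it lies on the opposite strand. The ADM sequence is chr11:10326276-10326575, with the TSS 94 bases upstream of the start of the canonical transcript. The ANGPTL4 sequence is chr19:8428760-8429059, with the TSS 29 bases upstream of the canonical start. The EFNA3 sequence is chr1:155051097-155051342 and the EFNA1 sequence is chr1:155100098-155100381, with the EFNA3 TSS inside exon 1 and the EFNA1 TSS 4 bases upstream of its canonical start.
ADM: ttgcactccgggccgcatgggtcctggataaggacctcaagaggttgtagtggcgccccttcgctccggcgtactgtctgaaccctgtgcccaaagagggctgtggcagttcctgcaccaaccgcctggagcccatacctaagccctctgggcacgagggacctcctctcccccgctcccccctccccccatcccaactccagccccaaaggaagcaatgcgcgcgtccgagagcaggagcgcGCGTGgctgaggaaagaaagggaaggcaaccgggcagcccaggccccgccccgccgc
ANGPTL4: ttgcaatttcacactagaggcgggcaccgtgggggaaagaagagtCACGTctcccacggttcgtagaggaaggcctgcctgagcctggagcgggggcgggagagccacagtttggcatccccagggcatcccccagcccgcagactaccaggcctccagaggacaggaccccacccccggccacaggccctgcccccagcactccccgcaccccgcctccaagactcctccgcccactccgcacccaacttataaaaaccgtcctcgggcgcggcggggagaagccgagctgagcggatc
EFNA3: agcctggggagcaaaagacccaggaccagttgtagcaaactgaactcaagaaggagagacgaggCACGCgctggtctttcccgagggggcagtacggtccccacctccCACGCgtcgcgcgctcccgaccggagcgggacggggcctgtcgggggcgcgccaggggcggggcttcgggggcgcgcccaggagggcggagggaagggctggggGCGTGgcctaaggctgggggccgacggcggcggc
EFNA1: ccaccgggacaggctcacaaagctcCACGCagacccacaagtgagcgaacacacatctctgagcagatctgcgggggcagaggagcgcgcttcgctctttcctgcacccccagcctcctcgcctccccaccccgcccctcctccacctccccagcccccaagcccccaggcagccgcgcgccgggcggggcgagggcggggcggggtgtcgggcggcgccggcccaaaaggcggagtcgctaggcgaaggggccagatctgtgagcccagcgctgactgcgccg

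Within the window from 250 bases before to 50 bases after the TSS, each of the 7 ligand genes examined (all but VEGFA) held at least 1 core motif on either strand, 3 in EFNA3 and 1 in each of the others. The same window held a motif in 53.0% of the 23193 genes. In a wider window of 2000 bases (1500 before and 500 after the TSS), which held a motif in 94.2% of all genes with a median of 4, EFNA1 had the highest number of the 7 genes, 13, and EFNA3 the lowest, 3. PGF had 8, ADM and ANGPTL4 7 each, VEGFC 6 and VEGFB 5. A palindromic match was counted once per strand, and a match of these letters is a description of the sequence, not a site of binding.

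**Figure D1:**
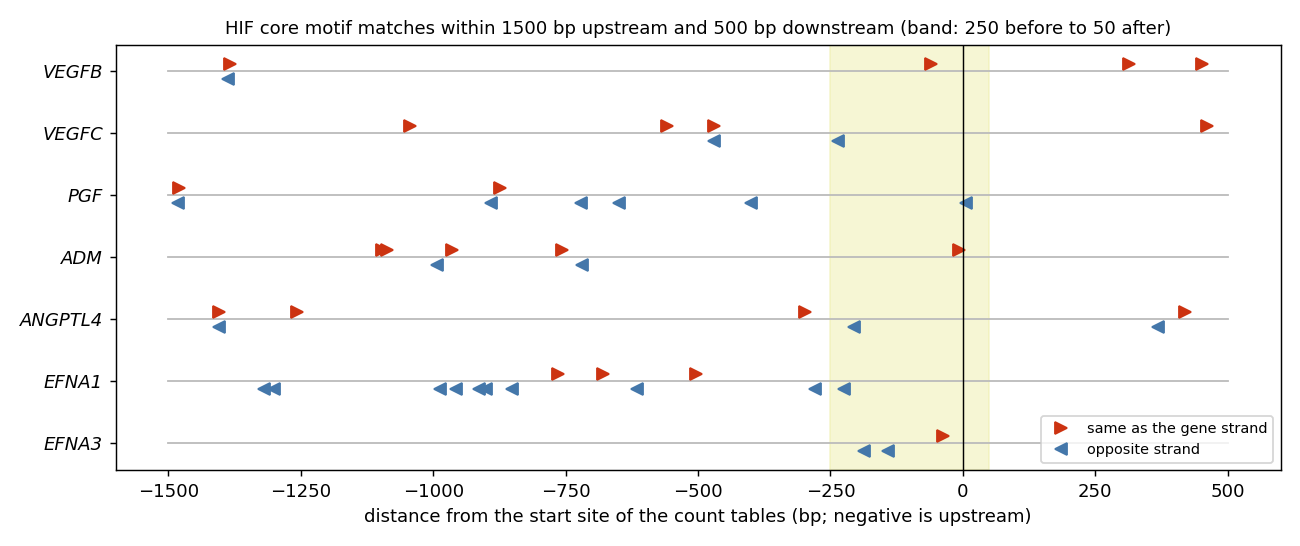
Position of each core motif (ACGTG or GCGTG) relative to the assigned TSS, in bases on the horizontal axis, for 7 ligand genes, 1 line per gene, with red markers for the strand of the gene, blue markers for the opposite strand and a band for the window from 250 bases before to 50 after the TSS. EFNA1 holds 13 motifs, most of them upstream of the band, and the 3 of EFNA3 all lie within it.

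The gene body counts per library totalled 18125234 to 23622392 reads, and the TSS counts 2783581 to 5966348, with the lowest TSS shares of the counts in replicate 1 of both HIF1A-/- groups (11.2% and 12.9%, against up to 20.2% elsewhere). Levels are given as counts per 1000000 counted reads (CPM) after TMM scaling, for a gene body region that starts downstream of the TSS region and for a TSS region of 551 bases. Genes over 0.5 CPM in at least 2 libraries were tested, which left 16686 gene bodies and 15212 TSS regions. All 8 ligand genes passed in the gene body and 7 in the TSS, where VEGFC had no count in any library. Epithelial markers summed to 927 to 1334 CPM, with 9 of 9 passing the filter. Endothelial markers summed to 55.1 to 76.5 CPM, with 6 of 10 passing and CLDN5 and ROBO4 at or under 3 counts. The HIF1A gene body itself had 138 and 150 CPM in normoxic WT cells, 130 and 161 in hypoxic WT cells, 165 and 137 in normoxic HIF1A-/- cells and 175 and 158 in hypoxic HIF1A-/- cells. The counts span the whole gene body and so do not check the disruption of HIF1A. As the samples are bulk cultures, more cells transcribing a gene and more polymerase per cell cannot be told apart.

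In WT cells, gene body transcription of ANGPTL4, ADM, VEGFA and EFNA3 rose in hypoxia, by 14.02-fold, 4.24-fold, 2.31-fold and 1.90-fold. These were 4 of the 8 ligand genes, where 0.431% of all 16686 gene bodies rose at a false discovery rate (FDR) of 10% (edgeR quasi-likelihood test with Benjamini-Hochberg adjustment over all genes). None of the 8 fell. VEGFB, EFNA1, PGF and VEGFC did not pass the test. The median log2 fold change of the 8 was 0.86, against -0.02 over all genes tested. It lies between the values of EFNA3 (0.93) and VEGFC (0.79), and VEGFC held only 2 to 10 counts in the WT libraries. With the replicate number as a block, edgeR called the same 4, where 3.73% of gene bodies rose. The edgeR adjusted p in that fit was 0.000687 for ANGPTL4, 0.00097 for VEGFA, 0.00525 for ADM and 0.00829 for EFNA3.

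VEGFA, the main growth factor of blood vessel endothelium, had 54.7 and 46.8 CPM in WT normoxia and 113 and 122 CPM in WT hypoxia. HIF1A-/- cells had 36.7 and 37.6 CPM in normoxia and 37.7 and 38.5 CPM in hypoxia. Both WT hypoxia libraries stood above all others, and the HIF1A-/- libraries lay within a narrow band below the WT normoxia libraries. The rise in WT was 1.21 on the log2 scale (SE 0.13, 95% interval 0.90 to 1.52, edgeR adjusted p = 0.0196). The assigned TSS of VEGFA lies 1773 bases downstream of the canonical start, inside intron 1, so that its TSS values do not cover the canonical promoter. Polymerase that began at the canonical start or in intron 1 passes through the gene body (chr6:43740722-43754224, plus strand), where the origins cannot be told apart.

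VEGFB (gene body chr11:64003056-64006736, plus strand), a relative of VEGFA that binds FLT1, had 8.03 and 8.17 CPM in WT normoxia and 11.8 and 10.8 in WT hypoxia. HIF1A-/- cells had 10.00 and 9.02 CPM in normoxia and 11.5 and 9.24 in hypoxia. The WT groups did not overlap, but the log2 difference of 0.48 (SE 0.21) did not pass after adjustment (edgeR adjusted p = 0.897). DNAJC4 starts 4.2 kb upstream on the same strand, and any polymerase running on from it cannot be told from that of VEGFB. PGF, placental growth factor (gene body chr14:75408532-75421466, minus strand), which also binds FLT1, had 18.6 and 10.8 CPM in WT normoxia and 13.9 and 16.3 in WT hypoxia, with 18.7 and 20.01 in normoxic HIF1A-/- cells and 18.1 and 21.7 in hypoxic HIF1A-/- cells. The 2 WT normoxia libraries of PGF enclosed the WT hypoxia values, and the log2 difference was 0.04 (95% interval -0.57 to 0.65).

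VEGFC, a ligand of FLT4 known for its action on lymphatic endothelium, was close to the counting limit. Its gene body (chr4:177604684-177712898, minus strand) held 5 and 2 counts in normoxic WT cells, 4 and 10 in hypoxic WT cells, 5 and 19 in normoxic HIF1A-/- cells and 6 and 13 in hypoxic HIF1A-/- cells. The log2 difference in WT was 0.79 with a 95% interval from -1.32 to 2.91, so a change of the size seen for VEGFA was not detectable at this depth. The gene body also overlaps an opposite-strand lncRNA.

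ADM encodes adrenomedullin, a peptide that widens vessels and is needed for lymphatic vessels. Its gene body (chr11:10327527-10328949, plus strand) is short, 1423 bases of which 83.3% are exonic. It had 32.9 and 40.2 CPM in WT normoxia and 139.7 and 170.1 CPM in WT hypoxia. The HIF1A-/- line had 61.1 and 34.1 CPM in normoxia and 45.6 and 48.8 in hypoxia. Both WT hypoxia libraries exceeded every other library by more than the spread of any group, and the HIF1A-/- normoxia pair enclosed the HIF1A-/- hypoxia pair. The rise in WT was 2.08 on the log2 scale (SE 0.27, 95% interval 1.46 to 2.71, edgeR adjusted p = 0.0314).

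ANGPTL4, a secreted inhibitor of lipoprotein lipase that also acts on vessel walls, had 10.4 and 10.1 CPM in WT normoxia and 81.3 and 205 CPM in WT hypoxia. In HIF1A-/- cells it had 21.2 and 26.5 CPM in normoxia and 32.7 and 41.9 in hypoxia. Both WT hypoxia libraries were above all others, although their gap was wider than that within any other group. The rise in WT was 3.81 on the log2 scale (SE 0.42, 95% interval 2.83 to 4.78, edgeR adjusted p = 0.0196), the largest of the 8. It was 4.34 without WT hypoxia replicate 1 and 2.99 without WT hypoxia replicate 2. The gene body (chr19:8430011-8439259, plus strand) overlaps the opposite-strand lncRNA RAB11B-AS1, and the strand setting of the counting is not given in the sources used here.

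The ephrin-A ligands EFNA1 and EFNA3 have their TSS 49001 bases apart on chromosome 1, on the plus strand, with gene bodies at chr1:155101349-155107386 and chr1:155052348-155060014. EFNA3 had 21.2 and 22.7 CPM in WT normoxia and 41.1 and 42.5 in WT hypoxia, with 18.8 and 23.2 in normoxic HIF1A-/- cells and 21.7 and 21.3 in hypoxic HIF1A-/- cells. The WT hypoxia pair stood apart from the other 6 libraries, which overlapped. The rise was 0.93 on the log2 scale (SE 0.16, 95% interval 0.56 to 1.30, edgeR adjusted p = 0.0954), just inside the threshold. With the replicate block the edgeR adjusted p was 0.00829. EFNA1 had 20.5 and 22.7 CPM in normoxic WT cells, 24.8 and 22.6 in hypoxic WT cells, 14.7 and 20.1 in normoxic HIF1A-/- cells and 17.5 and 20.3 in hypoxic HIF1A-/- cells. Its groups overlapped between normoxia and hypoxia in both genotypes, with a log2 difference in WT of 0.13 (95% interval -0.32 to 0.59). The difference in response between these ephrin genes was not tested.

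**Figure D2:**
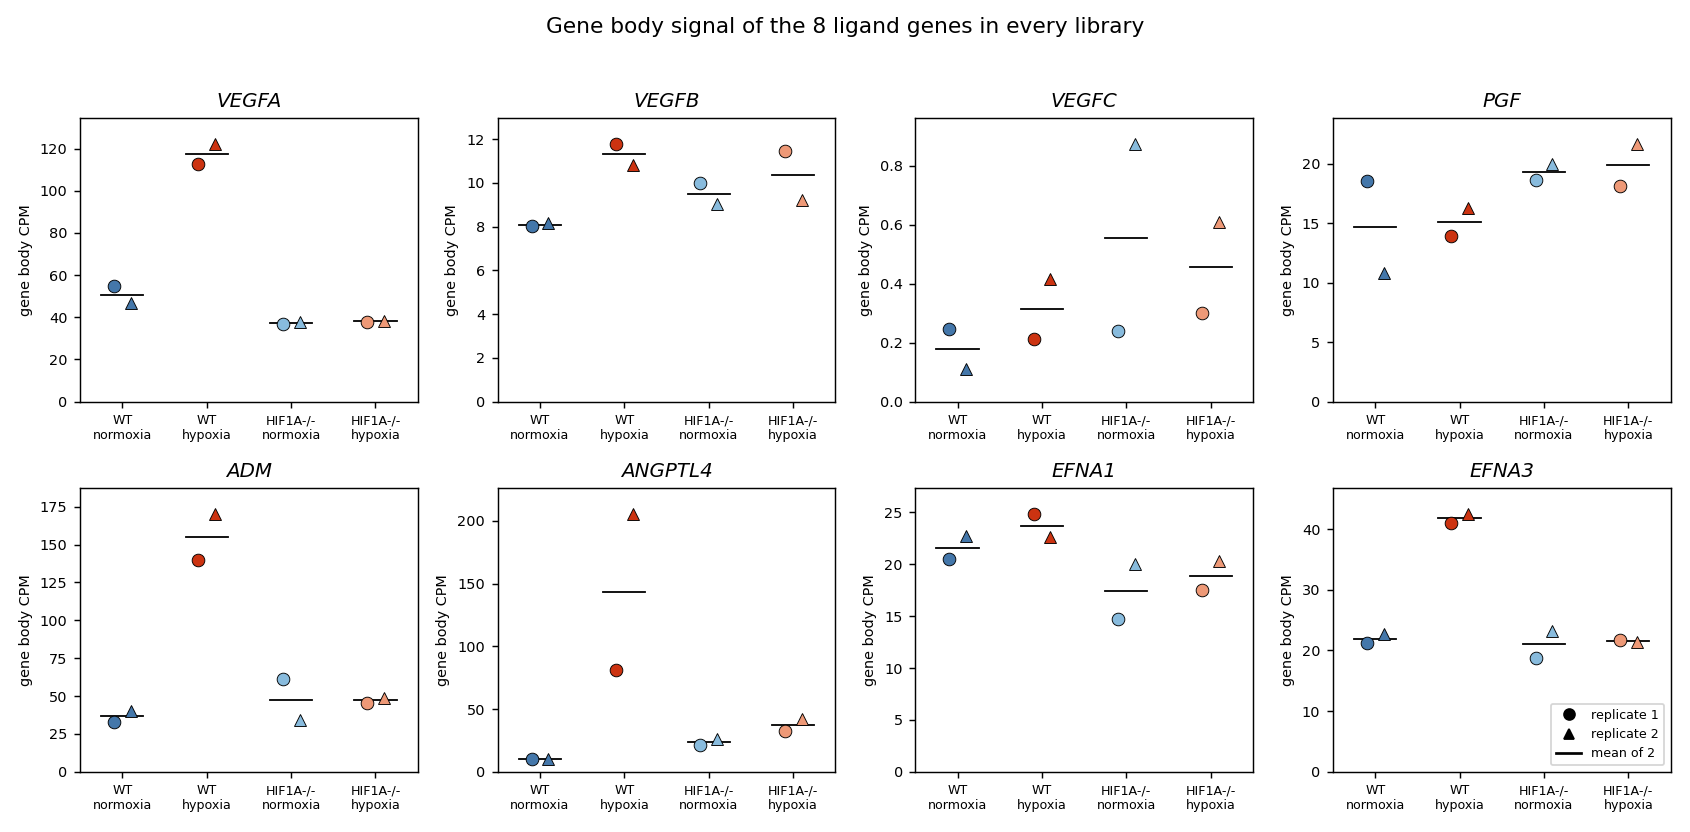
Gene body CPM (vertical axis, linear and starting at 0, one panel per gene) in each of the 8 libraries by genotype and O2 level, with circles for replicate 1, triangles for replicate 2 and a line for their mean. The WT hypoxia points of ADM, ANGPTL4, VEGFA and EFNA3 lie above all their other points, and those of the other 4 genes do not.

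Leaving out single libraries changed these calls, while the sign of each of the 4 changes in WT stayed the same. None of the 4 passed without either WT normoxia library. Without WT hypoxia replicate 2 only ANGPTL4 passed (adjusted p = 0.0299). EFNA3 was also lost without WT hypoxia replicate 1 (adjusted p = 0.296) and without either HIF1A-/- hypoxia library (0.173 and 0.169), as it was from library totals without TMM (0.131). Each such fit rests on 1 library in a group, which is assumed to vary like the other groups.

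In HIF1A-/- cells no gene body passed the test of hypoxia against normoxia, in any direction (0% of 16686 by edgeR, with 175 higher and 172 lower at an unadjusted p under 0.05). With the replicate block 6 gene bodies passed (0.036%), BHLHE40, ELF3, LINC01619, LINCR-0002 and PHEX as higher and BANP as lower, and with DESeq2 8 passed (0.0479%). None of the 8 ligand genes was among them in either fit. ANGPTL4 had the largest fitted value, 0.65 on the log2 scale (SE 0.38, 95% interval -0.23 to 1.52) in edgeR without the block. With the block it was 0.64 (SE 0.27, 95% interval 0.03 to 1.25), which did not pass over all genes (edgeR adjusted p = 0.497). Without the block, the interval for ADM ran from -0.61 to 0.59, for VEGFA from -0.28 to 0.35 and for EFNA3 from -0.33 to 0.40. These intervals exclude the changes of 2.08, 1.21 and 0.93 fitted for the same genes in WT. The WT values have an error of their own, so this is no test between the genotypes, which the interaction below gives. The median over the 8 genes was 0.04, against 0.00 over all genes.

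Without regard to any test, each hypoxia library exceeded each normoxia library for 5 of the 8 genes in WT (ADM, ANGPTL4, EFNA3, VEGFA and VEGFB), where 18.3% of all gene bodies did so. In HIF1A-/- cells the same held for 2 of the 8, ANGPTL4 and VEGFA, against 12.1% of all gene bodies. The VEGFA values there, 36.7 and 37.6 against 37.7 and 38.5 CPM, were separated by less than the replicates of a group.

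The interaction tested whether the response to hypoxia differed between the genotypes. The WT response exceeded the HIF1A-/- response by 3.16 (SE 0.55) on the log2 scale for ANGPTL4, by 2.096 (SE 0.37) for ADM, by 1.18 (SE 0.19) for VEGFA and by 0.90 (SE 0.22) for EFNA3. None of these passed over all genes in the edgeR fit without the replicate block (adjusted p = 0.309, 0.322, 0.227 and 1.00), where 0.0539% of gene bodies were called in that direction. DESeq2 without the block called ANGPTL4 (adjusted p = 2.92e-06), ADM (6.35e-05) and VEGFA (0.000196), where it called 0.408% of gene bodies. With the replicate number as a block in edgeR, 3 of the 8 passed, ANGPTL4 (3.06, SE 0.39, adjusted p = 0.0205), VEGFA (1.18, SE 0.15, adjusted p = 0.0210) and ADM (2.09, SE 0.35, adjusted p = 0.0733), where 0.384% of gene bodies were called. EFNA3 did not pass in that fit (0.89, adjusted p = 0.1495). DESeq2 with the block did call EFNA3 (0.90, adjusted p = 0.0199), in a fit whose share over all genes was not computed.

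**Figure D3:**
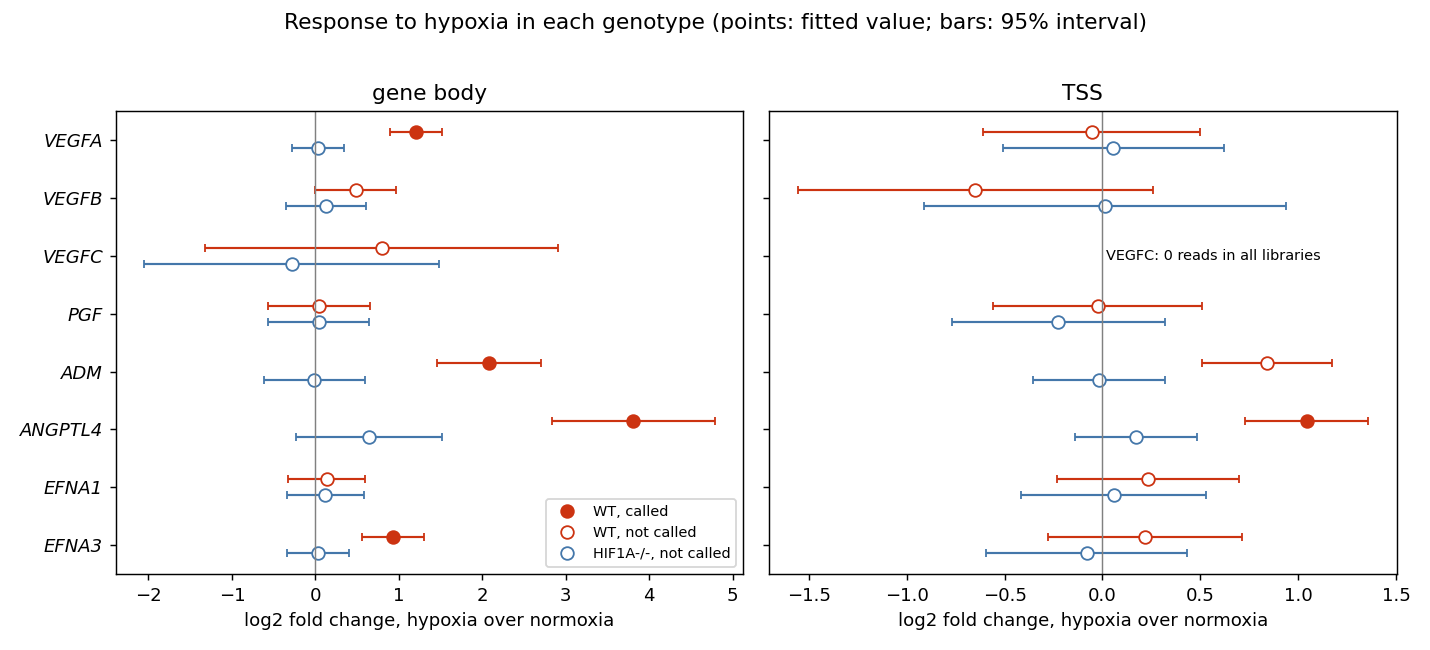
Fitted log2 fold change in hypoxia against normoxia (horizontal axis) in the gene body (left panel) and the TSS (right panel) for each ligand gene in WT (red) and HIF1A-/- (blue) cells, with bars for the 95% interval of the edgeR fit and filled points for changes past the FDR threshold. The WT gene body values of ANGPTL4 (3.81), ADM (2.08), VEGFA (1.21) and EFNA3 (0.93) are the filled points of the gene body panel. All HIF1A-/- intervals include 0 in this fit, which has no replicate block.

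Under hypoxia, the same 4 ligands were lower in HIF1A-/- than in WT cells. VEGFA was 3.09-fold lower (log2 difference -1.63, SE 0.14, adjusted p = 0.00136), ANGPTL4 3.84-fold lower (-1.94, SE 0.38, adjusted p = 0.0444), ADM 3.28-fold lower (-1.71, SE 0.27, adjusted p = 0.0192) and EFNA3 1.94-fold lower (-0.96, SE 0.16, adjusted p = 0.0247), all by edgeR. In this comparison 2.79% of gene bodies were lower and 1.47% higher. It shares the WT hypoxia libraries with the comparison within WT, so the 4 genes are not seen independently in each. EFNA1, PGF, VEGFB and VEGFC did not pass (adjusted p from 0.478 to 0.812). Leaving out 1 library at a time left VEGFA past the threshold in each case, while it was the 1 gene left without WT hypoxia replicate 2 or without HIF1A-/- hypoxia replicate 1, and VEGFA and ADM were left without HIF1A-/- hypoxia replicate 2. ANGPTL4 was also lost without WT normoxia replicate 2 (adjusted p = 0.104), and EFNA3 without WT hypoxia replicate 1 (adjusted p = 0.104). The ANGPTL4 difference was -1.13 without WT hypoxia replicate 2 and -2.44 without WT hypoxia replicate 1.

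In normoxia none of the 8 passed between the genotypes (1.78% of all gene bodies did, in either direction), in a comparison that shares the normoxia libraries with those within each genotype. ANGPTL4 was 2.33-fold higher in HIF1A-/- (log2 difference 1.22, SE 0.40, edgeR adjusted p = 0.323) and VEGFA 1.37-fold lower (-0.45, SE 0.13, edgeR adjusted p = 0.269). In neither gene did the libraries of the 2 genotypes overlap, but the share of all gene bodies without such overlap was not computed. With the replicate block both passed, ANGPTL4 as higher (1.198, adjusted p = 0.0469, among 3.93% of gene bodies) and VEGFA as lower (-0.45, adjusted p = 0.0459, among 6.39%). ANGPTL4 thus had its lowest values of the series in WT normoxia and its highest in WT hypoxia, with both HIF1A-/- groups between them.

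Across genes, levels were compared per kilobase of gene body. ADM was the highest of the 8 in every group, with a mean of 25.7 CPM per kb in WT normoxia, 109 in WT hypoxia, 33.5 ± 13.4 (SD, n = 2) in normoxic HIF1A-/- cells and 33.2 in hypoxic HIF1A-/- cells. In WT normoxia VEGFA (3.76) and EFNA1 (3.58) came next and overlapped, followed by EFNA3 (2.86), VEGFB (2.20), and PGF (1.14) with ANGPTL4 (1.11), which overlapped. In WT hypoxia ANGPTL4 moved from below PGF to the place after ADM (15.5 ± 9.48, SD, n = 2), where it overlapped with VEGFA (8.70). EFNA3 (5.45) then stood above EFNA1 (3.93), the reverse of their order in WT normoxia. In normoxic HIF1A-/- cells EFNA1, VEGFA, EFNA3, VEGFB and ANGPTL4 lay between 2.58 and 2.88 CPM per kb, each overlapping with the next. In hypoxic HIF1A-/- cells ANGPTL4 (4.03) came after ADM, then EFNA1 (3.13), and then VEGFA, VEGFB and EFNA3 (2.81 to 2.82), which overlapped. VEGFC was last in every group, at most 0.00514 CPM per kb.

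At the TSS, ANGPTL4 was the 1 ligand gene that rose in WT hypoxia, where 0.046% of 15212 TSS regions rose. It had 207 and 227 CPM in normoxic WT cells, 413 and 480 in hypoxic WT cells, 288 and 324 in normoxic HIF1A-/- cells and 333 and 356 in hypoxic HIF1A-/- cells. The WT hypoxia pair was above all other libraries, and the rise was 2.06-fold (log2 1.04, SE 0.14, 95% interval 0.73 to 1.36, edgeR adjusted p = 0.0349), a call that was lost without any 1 of the 4 WT libraries.

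The ADM TSS had 256 and 249 CPM in normoxic WT cells, 414 and 489 in hypoxic WT cells, 230 and 289 in normoxic HIF1A-/- cells and 253 and 261 in hypoxic HIF1A-/- cells. Its WT hypoxia libraries also exceeded all others, with a log2 difference of 0.84 (SE 0.15) that passed with the replicate block (0.83, adjusted p = 0.00071, among 0.789% of TSS regions) but not in the edgeR fit without it (adjusted p = 0.217). DESeq2 without the block called it (adjusted p = 0.00564, among 0.0986% of TSS regions). VEGFA had 68.6 and 82.7 CPM in WT normoxia and 74.0 and 71.6 in WT hypoxia at its intron 1 TSS, and in HIF1A-/- cells 94.1 and 62.0 in normoxia and 101 and 60.6 in hypoxia. These values overlapped throughout, with a log2 difference in WT of -0.06 (95% interval -0.61 to 0.50). EFNA3 had 55.1 and 46.5 CPM in WT normoxia and 69.1 and 49.3 in WT hypoxia, which overlapped. EFNA1, PGF and VEGFB did not pass either (adjusted p of 0.922 or more).

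In HIF1A-/- cells 0% of TSS regions passed for hypoxia against normoxia, with 77 higher and 58 lower at an unadjusted p under 0.05 by edgeR. The replicate block let 1 pass (0.00657%), that of BHLHE40 (0.83, adjusted p = 0.0769). The fitted log2 values of the ligand genes ran from -0.23 to 0.17. No ligand gene passed the interaction at the TSS, while with the replicate block ANGPTL4 did (0.87, adjusted p = 0.0687), among 0.046% of TSS regions. In hypoxia the ADM TSS was 1.76-fold lower in HIF1A-/- than in WT (log2 difference -0.81, SE 0.15, edgeR adjusted p = 0.0324), where 0.664% of TSS regions were lower. That call was lost without WT hypoxia replicate 2 or without either HIF1A-/- hypoxia library. The ANGPTL4 TSS passed there in the edgeR fit with the replicate block (-0.37, adjusted p = 0.0496, among 6.97% of TSS regions). In normoxia it was higher in HIF1A-/- with the replicate block (0.49, adjusted p = 0.0255, among 2.24%) and did not pass in the edgeR fit without it (0.50, adjusted p = 0.306).

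The pausing index is the read density of the TSS region over that of the gene body. Each density was first scaled to the library's total count in that kind of region. The index falls when polymerase becomes relatively more frequent downstream. ANGPTL4 had an index of 349 and 379 in normoxic WT cells, 85.7 and 37.6 in hypoxic WT cells, 238 and 200.5 in normoxic HIF1A-/- cells and 174 and 136 in hypoxic HIF1A-/- cells. Over the 14494 genes tested in both regions the median index per library was 44.4 to 49.1, so that ANGPTL4 lay far above the median in 6 libraries, above it in WT hypoxia replicate 1 and below it in WT hypoxia replicate 2. Its index fell 6.16-fold in WT (log2 -2.62, SE 0.31, edgeR adjusted p = 0.000873), where 0.186% of genes fell. It passed in all 10 alternative fits.

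No other ligand gene passed for the index. VEGFA had 32.0 and 43.5 in WT normoxia and 16.2 and 13.8 in WT hypoxia, with 65.7 and 39.5 in normoxic HIF1A-/- cells and 67.3 and 36.8 in hypoxic HIF1A-/- cells. Its WT hypoxia values were below all others, with a log2 difference of -1.26 (SE 0.28, adjusted p = 0.153). As the assigned TSS of VEGFA lies in intron 1, its index does not describe pausing at the canonical promoter. ADM had 20.9 and 16.1 in WT normoxia and 7.69 and 7.11 in WT hypoxia, with 10.1 and 21.4 in normoxic HIF1A-/- cells and 14.6 and 13.2 in hypoxic HIF1A-/- cells. Here too the WT hypoxia values were the lowest, with a log2 difference of -1.25 (SE 0.29, adjusted p = 0.242). EFNA1 had 115 and 98.1 in WT normoxia and 103 and 115 in WT hypoxia, a log2 difference of 0.10. VEGFB had 8.85 and 7.08 in WT normoxia and 4.67 and 2.33 in WT hypoxia (-1.17, SE 0.41, edgeR adjusted p = 0.872). These values did not overlap, but rest on 46 and 33 TSS counts in normoxia and 39 and 23 in hypoxia. The share of all genes whose index did not overlap was not computed. EFNA3 had 37.6 and 28.6 against 23.5 and 15.5 (-0.72, SE 0.27, edgeR adjusted p = 0.872). PGF had 85.0 and 125 against 102 and 82.8, which overlapped.

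In HIF1A-/- cells the fitted log2 difference of the index in hypoxia was -0.47 (SE 0.30) for ANGPTL4, -0.06 for ADM and 0.0063 for VEGFA, and no ligand gene passed. For ANGPTL4 the WT response differed from the HIF1A-/- response by -2.15 (SE 0.42, adjusted p = 0.206), which did not pass. The share of counts in the TSS also differed between the libraries, as given above. The index and its test scale TSS and gene body counts to separate library totals, which takes out a library-wide share. Any remaining part in these values was not tested.

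**Figure D4:**
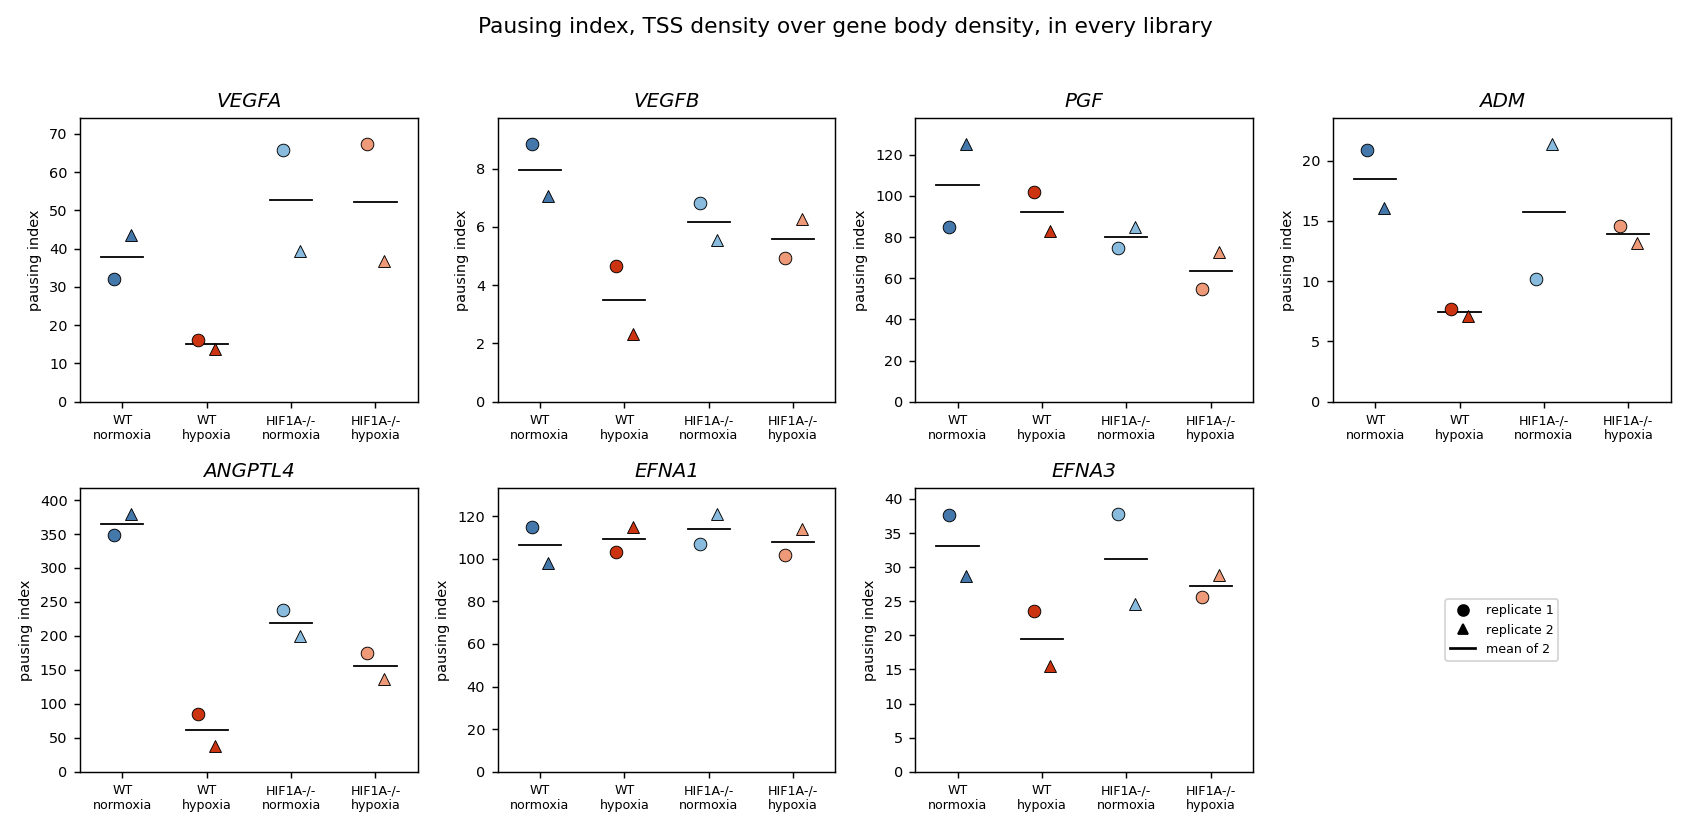
Pausing index (vertical axis, linear scale, one panel per gene) in each of the 8 libraries for the ligand genes with counts in the TSS, by genotype and O2 level. The ANGPTL4 index is 349 and 379 in WT normoxia against 85.7 and 37.6 in WT hypoxia, and EFNA1 stays between 98.1 and 121 in all libraries.

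The nearest genes on either side were examined to see whether the change was shared along the chromosome. None of the 15 neighbouring genes passed the WT comparison. CAND1.11, on the same strand as ADM with its TSS 3.3 kb away, came closest, with 37.0 and 43.5 CPM in WT normoxia and 71.0 and 103 in WT hypoxia, against 35.8 and 40.2 in normoxic HIF1A-/- cells and 41.4 and 47.9 in hypoxic HIF1A-/- cells. Its WT hypoxia values exceeded all others, with a log2 difference of 1.11 (adjusted p = 0.119). CAND1.11 starts downstream of the end of the ADM gene body. Polymerase that ran on past ADM would be counted in CAND1.11 and cannot be told from its own. With the replicate block 3 of the 15 passed, in a fit where 3.73% of gene bodies rose and 1.77% fell. They were CAND1.11 (1.09, adjusted p = 0.00241), LINC01512, 119.0 kb from VEGFA (1.35, adjusted p = 0.0900), and EIF2B2, 47.1 kb from PGF, which was lower (-0.66, adjusted p = 0.0868). LINC01512 held only 10 and 20 counts in WT normoxia and 16 and 84 in WT hypoxia, which overlapped. SBF2, on the other side of ADM, differed by 0.28. EFNA4, an ephrin-A gene 15.1 kb from EFNA3, differed by 0.52 (adjusted p = 0.897), and SLC50A1 beside EFNA1 by 0.13. KANK3 and RAB11B, on either side of ANGPTL4, differed by 0.05 and -0.0040, and MRPS18A beside VEGFA by -0.02. EFNA3 overlaps an annotated read-through transcript with EFNA4, and reads of that transcript cannot be told from those of EFNA3 itself.

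**Figure D5:**
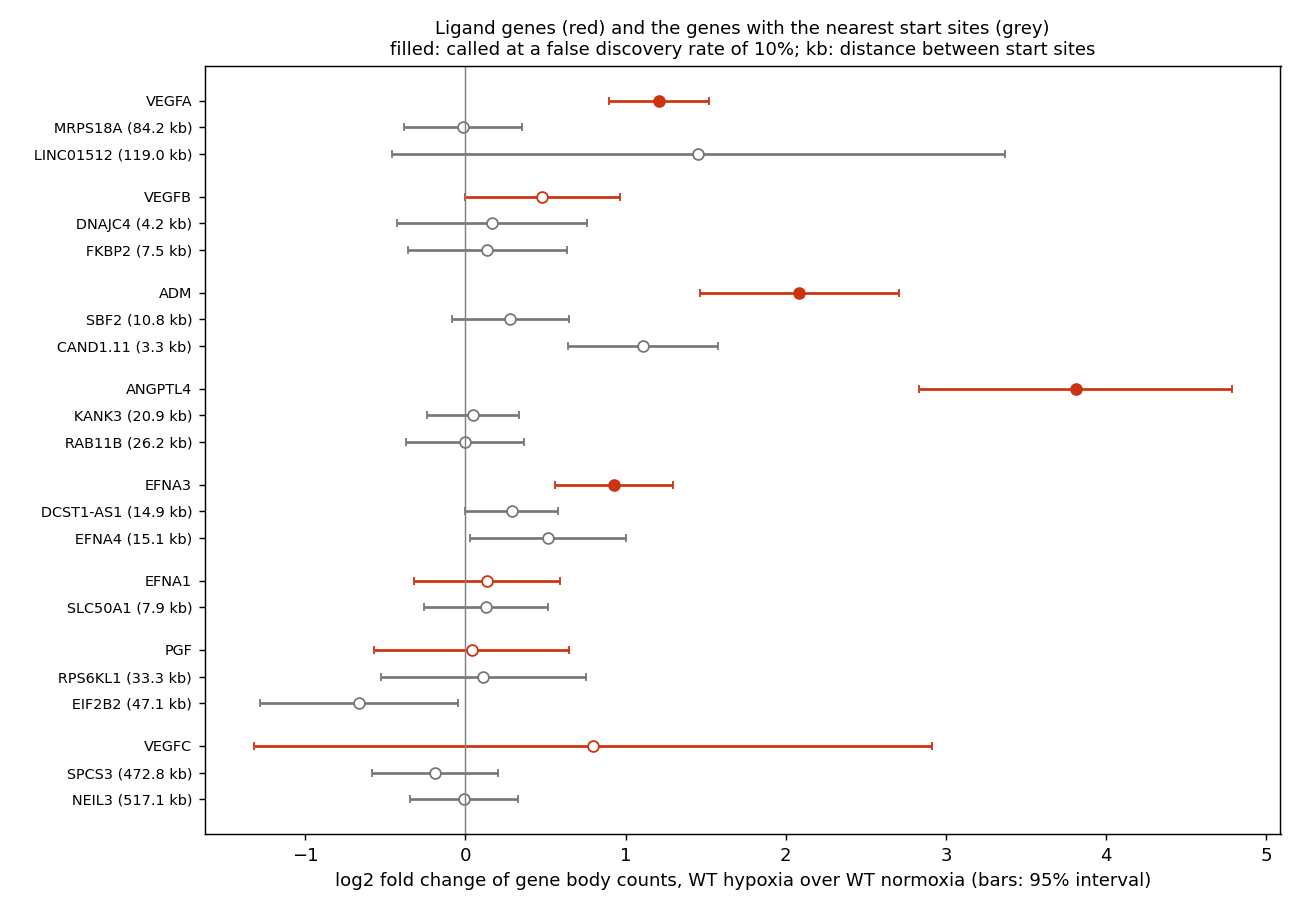
Fitted log2 fold change of the gene body in WT hypoxia against normoxia (horizontal axis, bars for the 95% interval) for each ligand gene (red) and the genes with the nearest start sites (grey), with the distance between start sites in kb. The neighbours of ANGPTL4 (0.05 and -0.0040) lie near 0, while CAND1.11 beside ADM is at 1.11.

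Other genes of these pathways were examined in WT hypoxia. Of 18 related ligand genes (other ephrins, angiopoietin-like genes and calcitonin peptides), 11 were tested and none passed, with a median log2 fold change of -0.20. With the replicate block EFNB2 was lower (-0.46, adjusted p = 0.0794). Of 19 receptor genes for these ligands, 9 were tested and none passed, with a median of 0.12. With the replicate block KDR, the main VEGFA receptor of endothelium, was higher (2.13, adjusted p = 0.0256), on 2 to 69 counts per library. In HIF1A-/- cells the same fit gave KDR a log2 difference of 2.12 (adjusted p = 0.233), with 0.01 for the interaction. FLT1 held 2 to 12 counts and did not pass the filter, nor did FLT4. Of 19 other angiogenic ligand genes 15 were tested and none passed, with a median of 0.34, and with the replicate block PDGFB, a ligand of pericyte receptors, was higher (0.57, adjusted p = 0.0639). Of 12 inhibitors of angiogenesis 8 were tested and none passed, with a median of 0.06. None of these 4 lists had a gene past the interaction test, in either fit.

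For comparison, 18 reference genes known as HIF targets in metabolism and O2 sensing were tested, of which 14 rose in WT hypoxia (0.431% of all gene bodies rose) and none in HIF1A-/-. The replicate block brought these counts to 18 in WT, where 3.73% of gene bodies rose, and to 1 in HIF1A-/-, BHLHE40 (1.19, adjusted p = 0.0257). The median was 2.25 on the log2 scale in WT. For 5 of them (BNIP3, KDM3A, P4HA1, PDK1 and PFKFB4) the WT response passed as larger than the HIF1A-/- response (0.0539% of gene bodies), and 15 did so with the replicate block (0.384%). Among them PFKFB4, a regulator of glycolysis, had 84.8 and 77.9 CPM in WT normoxia and 478 and 538 in WT hypoxia. These genes are widely used as HIF targets, so their rise is not evidence independent of what is known of them.

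Some receptor genes differed between the genotypes. In hypoxia 2 of the 9 receptors tested were higher and 2 lower in HIF1A-/-, where 1.47% of gene bodies were higher and 2.79% lower. In normoxia 1 was higher and 1 lower, where 1.78% of gene bodies passed in either direction. The replicate block raised these counts to 7 of the 9 in hypoxia, where 28.2% of gene bodies passed in either direction, and to 5 in normoxia, where 3.93% were higher and 6.39% lower. These genes are named after their values were seen. EPHA4, an ephrin receptor, had 22.7 and 20.9 CPM in WT normoxia and 58.0 and 44.7 in normoxic HIF1A-/- cells, a log2 difference of 1.23 (adjusted p = 0.0167). RAMP1, a partner of CALCRL, had 66.1 and 63.6 CPM in WT normoxia and 27.5 and 20.6 in normoxic HIF1A-/- cells, a log2 difference of -1.43 (adjusted p = 0.0154). In both genes the genotypes did not overlap in normoxia, where the share of all gene bodies without overlap was not computed. In hypoxia EPHA2 was also higher (0.97, adjusted p = 0.0893) and NRP1, a co-receptor of VEGFA, lower (-1.70, adjusted p = 0.0593) in HIF1A-/- cells.

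The genes whose gene body level followed each ligand most closely over the 8 libraries were found by Pearson's r among 15286 genes, as a description with no test. The 8 points fall in 4 groups and share their libraries, so a gene that responds in the same groups will have a high r. VEGFA was followed by EGLN1 (0.992), SAP30 (0.990) and DYRK4 (0.988), where EGLN1 is an O2-sensing hydroxylase of HIF. EFNA3 was followed by TMEM45A (0.997), QSOX1 (0.990) and PFKFB4 (0.987). ADM was followed by ZNF511 (0.987), TBC1D15 (0.986) and RAB20 (0.976), and ANGPTL4 by MOB3A (0.984), WDR54 (0.975) and MSANTD3-TMEFF1 (0.973). For the genes that did not pass in WT hypoxia, the closest r was lower for PGF (TMEM106A, 0.920) than for EFNA1 (PHOSPHO2-KLHL23, 0.991) or VEGFB (PLXNA3, 0.975).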

How the data were processed

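The tables deposited by the authors hold raw counts for every gene, obtained with featureCounts (Subread 1.6.2) after alignment to GRCh37 with HISAT2 2.1.0, using SAMtools 1.5, as the study's methods and the submitters' processing notes name them. The authors merged reads of repeat sequencing runs, kept a single TSS and gene body per gene, and counted each gene in a TSS region from 50 bases before to 500 after the TSS and in a gene body. Regions cannot be redrawn from these counts, and the strand setting of the counting is not given in the sources used here.

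The ligand genes, the gene lists and the tests were chosen with earlier results of these data known, and all 8 ligand genes are named. Genes over 0.5 CPM in at least 2 libraries were scaled by TMM. Tests used the quasi-likelihood functions glmQLFit and glmQLFTest of edgeR 4.0.16 in R 4.3.3, in 1 fit of 4 group means over the 8 libraries per region, with Benjamini-Hochberg adjustment over all genes tested and an FDR of 10%. The SE was taken from the fold change and the F statistic. Pausing was tested in 1 fit of 16 columns (the TSS and gene body counts of each library) with a term per library. The scripts were tested on simulated data. Alternatives were DESeq2 1.42.0, library totals without TMM, no filter, a filter of over 1 CPM in at least 4 libraries, the replicate number as a block, DESeq2 with that block, and leaving out each library.

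Replicate numbers come from the sample titles. Same-numbered libraries deviated from their group means together, with correlations of 0.484 to 0.79 in gene bodies and 0.216 to 0.519 in the TSS over the 6 pairs of groups, and were taken to be paired. No pair of libraries of a group was alike within sampling noise. Depth sets a floor of 3 counts per library, or 0.124 to 0.166 CPM in gene bodies and 0.514 to 1.09 CPM in the TSS, which covers counting error only. Promoter sequences and gene annotation were read from GRCh37 by coordinates. The sequence around the VEGFA TSS is not reported here.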

Additional observations from a re-analysis of the deposited data

Results flagged for a closer look

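Groups of 2 libraries are too small to test for an outlying library. With the replicate block, the response to hypoxia differed between WT and HIF1A-/- cells for 3 gene bodies and 1 TSS (edgeR interaction, each value on the log2 scale as WT minus HIF1A-/-). In the gene body the difference was 3.06 for ANGPTL4, 2.09 for ADM and 1.18 for VEGFA. At the TSS it was 0.87 for ANGPTL4. Without the block none of these passed over all genes in edgeR, while DESeq2 called the 3 gene bodies (adjusted p = 2.92e-06 for ANGPTL4, 6.35e-05 for ADM and 0.000196 for VEGFA).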

How the results depend on the processing

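The number of ligand genes past the threshold for hypoxia against normoxia in the WT gene body was 4, also with DESeq2, with either filter choice and with the replicate block (with or without DESeq2), 3 from library totals without TMM, and 0 to 4 leaving out a library. For the gene body interaction it was 0, and 3 with DESeq2, 1 with no filter, 3 with the replicate block and 4 with DESeq2 and the block (0 to 1 leaving out a library). For HIF1A-/- against WT in normoxia it was 0, and 1 with DESeq2, 2 with the block and 2 with DESeq2 and the block (0 to 1). In hypoxia it was 4, and 1 to 4 leaving out a library. At the TSS in WT it was 1, and 2 with each of DESeq2, no filter, the block, and DESeq2 with the block (0 to 2). The TSS interaction gave 0, and 1 with the block and 1 with DESeq2 and the block. The TSS of HIF1A-/- against WT gave 0 in normoxia, and 1 with the block and 1 with DESeq2 and the block, and gave 1 in hypoxia, and 2 with the block and 2 with DESeq2 and the block (0 to 1). For the pausing index it was 1 in WT, and 3 with no filter (1 to 3), and for its interaction 0, and 1 with no filter (0 to 1). The replicate block changed no other call of a ligand gene. Apart from the smaller number of libraries or the changed set of genes tested, the cause was not tested. The share of all gene bodies called also differed between fits. In WT 0.431% rose without the block and 3.73% with it. For the interaction it was 0.0539%, 0.384% with the block and 0.408% with DESeq2. Between the genotypes in hypoxia the block called 28.2% in either direction. Shares were not computed for every fit listed, so a count alone does not show how far the ligand genes stand out.

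The sign changed only for fitted log2 values that had not passed. Leaving out a library, the range was -0.296 to 0.483 for PGF in WT hypoxia. In HIF1A-/- hypoxia it was -0.0194 to 0.265 for VEGFB, -0.936 to 0.139 for VEGFC, -0.353 to 0.455 for ADM, -0.0981 to 0.378 for EFNA1, -0.124 to 0.213 for EFNA3 and -0.1 to 0.185 for PGF, and ADM was 0.0449 without TMM. For the interaction it was -0.234 to 0.242 for EFNA1 and -0.34 to 0.441 for PGF, and PGF was 0.00703 with DESeq2, 0.000761 with no filter, 0.0101 with the stricter filter, 0.000487 with the replicate block and 0.0109 with DESeq2 and the block. For HIF1A-/- against WT it was -0.0593 to 0.75 for ADM and -0.214 to 0.121 for EFNA3 in normoxia, and -0.278 to 0.00557 for VEGFB in hypoxia. At the TSS in WT it was -0.178 to 0.0847 for VEGFA, -0.0424 to 0.443 for EFNA3 and -0.106 to 0.071 for PGF. Depth limits VEGFC, with no TSS count, and the receptors FLT1 and KDR.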
